A study of Mus musculus with 10 samples.

Results

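Distal intergenic accessible regions that hold a CA/TG dinucleotide run numbered 5060 in mouse sperm. They were 48.0% of the 10548 distal intergenic consensus regions and 20.4% of all 24763 consensus regions. To choose them, ATAC-seq peak intervals of 10 libraries were merged where they overlapped by at least 1 bp, and regions of chromosomes 1 to 19 with a peak in at least 2 libraries were kept if they lay over 3 kb from every GENCODE M21 transcript start and overlapped no transcript. A member had at least 10 tandem CA or TG units in the mm10 (GRCm38) reference within its bounds, so the presence of a run is what defines a member and is not a result. The comparison regions were 5488 distal intergenic regions without such a run and 4516 intronic regions with one.

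Mature sperm were collected from the caudae epididymides of wild-type C57BL/6JRccHsd males that had received either standard chow (F0 CD, 6 libraries) or a Western diet (F0 WD, 4 libraries) for 6 months from 4 weeks of age, with 1 library per mouse. ATAC-seq uses the Tn5 transposase to insert adapters into accessible DNA, and the study asked whether the father's diet alters sperm chromatin accessibility. These numbers follow the sample titles and the opening of the ATAC-seq methods, although the methods later state 4 controls and 6 males on the Western diet, as does the protocol text of the samples. The lists held 13366 to 29532 peak intervals per library, with the longest list in F0 CD replicate 2 and the shortest in F0 WD replicate 4, and the weakest summit called held 9 to 13 reads depending on the library. Peaks within 1 kb of a transcript start were found for 0 of 10 spermatid and sperm marker genes, 2 of 10 epididymal epithelium genes, 2 of 8 immune cell genes and 3 of 5 genes of earlier germ cells and testis. None of these genes had one in more than 2 libraries. The share of all genes with such a peak was not worked out, so these counts do not serve to check the labelled cell type. By qPCR the authors detected neither C-kit, for testicular germ cells, nor E-cadherin, for epithelial cells, in their sperm. They also reported a match of their control data to published sperm ATAC-seq.

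CA/TG runs are the most common dinucleotide microsatellites of the mouse genome. They are prone to slippage during replication, often grow or shrink between generations, and alternate purines with pyrimidines, which allows them to adopt a left-handed helix (Z-DNA) under torsional stress. In mature sperm most histones have been replaced by protamines, and the DNA that remains accessible to a transposase is a small part of the genome.

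The reference sequence at the strongest summits shows what these loci look like. Each line gives 101 bases of the + strand of mm10 centred on the strongest summit of a member named by its nearest transcript start, with capitals for every uninterrupted stretch of at least 3 CA or TG units. The first 4 were among the 5 members of highest median fold enrichment found in all 10 libraries, Gm21964 and Arhgap32 carry some of the longest runs, and Gm26307 and Gm43298 had a peak in every library of 1 diet and none of the other. The last line is a run of the genome-wide median length on chromosome 1 with no CA/TG stretch in its 100-bp flanks and no peak in any library, the first such run along the chromosome, shown centred on the run.
C330021F23Rik (chr8:3556256-3556356): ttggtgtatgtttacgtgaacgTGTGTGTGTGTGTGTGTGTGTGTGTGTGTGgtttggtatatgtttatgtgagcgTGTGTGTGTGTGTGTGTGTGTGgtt
Dcdc2a (chr13:25050520-25050620): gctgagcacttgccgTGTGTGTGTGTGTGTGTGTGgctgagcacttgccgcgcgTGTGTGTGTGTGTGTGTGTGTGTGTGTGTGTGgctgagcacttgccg
Gm25096 (chr1:35106799-35106899): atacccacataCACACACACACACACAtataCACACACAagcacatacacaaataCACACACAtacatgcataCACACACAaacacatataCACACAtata
Aldoart2 (chr12:55538493-55538593): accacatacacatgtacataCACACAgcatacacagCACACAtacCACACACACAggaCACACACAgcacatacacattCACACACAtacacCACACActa
Gm21964 (chr8:110136346-110136446): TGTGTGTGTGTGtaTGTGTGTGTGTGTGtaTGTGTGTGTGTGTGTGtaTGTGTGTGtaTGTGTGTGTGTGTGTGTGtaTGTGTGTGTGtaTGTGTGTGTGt
Arhgap32 (chr9:32286924-32287024): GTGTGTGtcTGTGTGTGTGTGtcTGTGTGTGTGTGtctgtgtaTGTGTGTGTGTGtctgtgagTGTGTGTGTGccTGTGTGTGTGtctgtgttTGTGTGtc
Gm26307 (chr16:74653990-74654090): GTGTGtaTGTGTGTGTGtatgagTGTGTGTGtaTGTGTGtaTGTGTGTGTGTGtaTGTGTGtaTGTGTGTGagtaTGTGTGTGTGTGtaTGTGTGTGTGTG
Gm43298 (chr5:150907748-150907848): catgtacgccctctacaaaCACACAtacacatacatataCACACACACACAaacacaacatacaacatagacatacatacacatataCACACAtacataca
Run outside every interval (chr1:5312257-5312357): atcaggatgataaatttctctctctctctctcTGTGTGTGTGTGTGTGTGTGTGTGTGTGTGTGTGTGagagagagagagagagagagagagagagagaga
The member windows shown were mostly broken CA/TG tracts rather than a lone run. At the Gm21964 summit 87.1% of the 101 bases lay in CA/TG stretches of 3 units or more, separated by single TA steps, although the nearest run of 10 units was 30 bp or more from the summit in every library with a peak. At Gm26307 the share was 78.2%. At C330021F23Rik and Dcdc2a runs of 10 units or more recurred between copies of a similar spacer. At Gm43298 only 23.8% of the window was in such stretches.

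Which runs of the genome fell in accessible regions was therefore described over all 118163 runs of at least 10 units that lie in distal intergenic sequence of chromosomes 1 to 19. Of these, 8260 (6.99%) lay in a consensus region. The share fell with the length of the run, from 10.3% (95% Wilson interval 9.97 to 10.6%) of runs of 10 to 14 units through 6.44% of runs of 15 to 19 units and 5.25% of runs of 20 to 24 units to 4.00% of runs of 25 to 29 units and 3.14% (2.27 to 4.34%) of runs of 30 units or more. These intervals cover counting error only, and neighbouring runs can share a region.

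The share moved more with the sequence beside the run than with its length. Flank content was measured as the percent of the 100 bases on either side that lie in short CA/TG stretches of 3 to 9 units, leaving out other runs of 10 units or more. Of the 52964 runs with none, 0.999% (0.918 to 1.09%) lay in a consensus region. The share was 2.78% for a flank content up to 10%, 15.3% from there to 20%, 38.2% to 30%, 55.6% to 40%, 70.4% to 60% and 84.2% (81.1 to 86.8%) of the 650 runs with more than 60%. The median flank content was 23.5% for runs in a consensus region and 3.0% for the other 109903 runs. For each library, a run was counted where its consensus region had a peak in that library. Peaks found in a single library were left out. That share was 0.181 to 0.408% where the flanks held no short stretch and 36.5 to 73.2% where they held more than 60%. The ranges of the 10 libraries did not overlap.

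**Figure D1:**
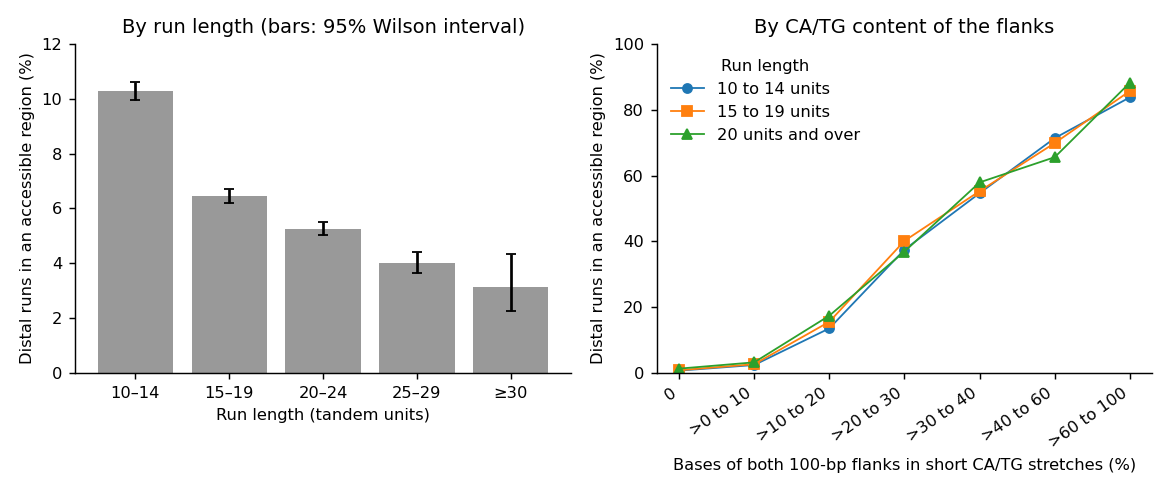
Percent of the distal runs of mm10 that lie in a consensus region, by run length in tandem units (left, bars with 95% Wilson intervals) and by the percent of the 100-bp flanks in short CA/TG stretches (right, 1 line per length class). The share fell from 10.3 to 3.14% with run length but rose from 0.999 to 84.2% with flank content, and it rose at each step of flank content in all 3 length classes.

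Among runs of like flank content the share rose with length in 5 of 7 classes and declined in 1, that of 40 to 60%. Among runs with no short stretch in the flanks, 0.685% of those of 10 to 14 units, 0.807% of those of 15 to 19 units and 1.3% of those of 20 units or more lay in a consensus region. With a flank content over 20 and up to 30% the values were 37.5, 40.2 and 36.9%. With over 30 and up to 40% the values were 54.7, 55.3 and 57.9%. Between 40 and 60% the order was the other way, with 71.4, 69.9 and 65.6%. Above 60% the longest class held 17 runs, of which 88.2% lay in a region. Runs with richer flanks were shorter, with a median of 11 units above 60% against 19 units where the flanks held no short stretch. This was chosen as a measure after the data had been examined, and no test was made of it. The authors allowed up to 20 alignments per read and removed alignments of quality under 5. The lists do not show how many reads of a region had a single alignment, and the part of alignability in these shares was not tested.

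The same stretches were measured in the 101 bases around each summit, again outside runs of 10 units or more. In members the per-library median share was 36.8% ± 1.47 (SD, n = 10 libraries), against 16.1% ± 5.74 in other distal regions, higher in 10 of 10 libraries (exact sign-flip permutation test over libraries, p = 0.00195, adjusted p = 0.00456 over 14 comparisons of this kind). The libraries share loci, so such p-values measure only how steady a difference was from library to library, and 0.00195 is the smallest value the test can give. A run often sits within a longer tract, so a higher share beside it is in part what the choice of members brings. Other distal regions were not free of the repeat either, since 44.1% of them held a CA/TG run of 5 to 9 units.

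Members had 1 run in 3302 cases, a pair of runs in 1111, 3 to 9 runs in 630 and 10 or more in 17, up to 17 runs in 1 region. The longest run of a member had a median of 18 units (quartiles 14 and 22), and it was written as CA on the reference strand in 49.9% of members. Counting every run, distal runs in a consensus region had a median of 16 units (quartiles 12 and 20). All distal runs of the genome had a median of 18 units (quartiles 14 and 22). A run of at least 25 units, which spans a whole 50-base read, was present in 435 members (8.6%). Grouped by the units of their longest run, 286 distal regions at 10 units had a peak in 4.39 libraries on average, with 18 reads at the median summit and a median fold of 4.24. This grouping does not match the members exactly, of which 271 had a longest run of 10 units. In the same grouping the 297 distal regions at 9 units, just short of the rule, had 4.34 libraries, 17 reads and a fold of 4.18.

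Consensus regions are about 356 bp wide at the median, and tiles of that width over distal intergenic sequence held a run in 3.45% of 3123836 cases, against 48.0% of the distal regions, a ratio of 13.9. The share of distal regions with a run varied with width from 46.0% of regions under 250 bp to 54.6% of those from 600 to under 1000 bp, and was 42.9% of the 49 wider ones. By chromosome it lay between 42.5% on chromosome 5 and 55.7% on chromosome 9.

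Most summits lay outside the runs, at distances that the choice of members limits in part. A member holds its run by definition. Member intervals had a mean library median width of 262 bp, with the summit a mean library median of 12.8 bp from the middle. The distance expected from this alone was not worked out. The authors extended reads to 200 bp for peak calling, so a summit marks a smoothed maximum rather than a single base. Over the 20090 summits of member intervals, taking the strongest summit of each, 15% lay in a run, 33.1% within 50 bp of its edge, 22.2% at 51 to 100 bp, 18.4% at 101 to 200 bp and 11.4% further away. The median distance was 54.0 bp (quartiles 13.0 and 117 bp), and the library medians ranged from 45 bp in F0 WD replicate 3 to 65 bp in F0 CD replicate 1. Members with several runs offer more run to be near, so the 3302 members with 1 run are the clearer measure. There the median distance was 76.0 bp and 10.6% of 12044 summits lay in the run.

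In members with 1 run the summit was compared with the middle of its interval and with the interval as a whole. The summit lay in the run in 10.48% ± 1.49 of cases (SD, n = 10 libraries), the middle of the interval in 9.59% ± 1.36, and the run made up 8.24% ± 0.493 of the bases of the intervals. The difference from the middles was 0.892 percentage points ± 0.357 (SE), higher in 9 of 10 libraries (exact sign-flip permutation test, p = 0.0234, adjusted p = 0.0298), and it did not pass the test without F0 CD replicate 2 (p = 0.0508) or without F0 CD replicate 6 (p = 0.0703). The difference from the share of bases was 2.242 percentage points ± 0.390, higher in 10 of 10 libraries (p = 0.00195, adjusted p = 0.00456), but 0.193 with exact p = 0.611 when a region had to be found in 3 libraries. The share of summits in the run rose with run length, from 6.00% at 10 to 14 units to 9.33, 15.8 and 21% at 15 to 19, 20 to 24 and 25 to 29 units, and was 15.7% of the 51 summits at 30 units or more. A longer run has more bases for a summit to fall in, and the part of that in these shares was not tested.

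**Figure D2:**
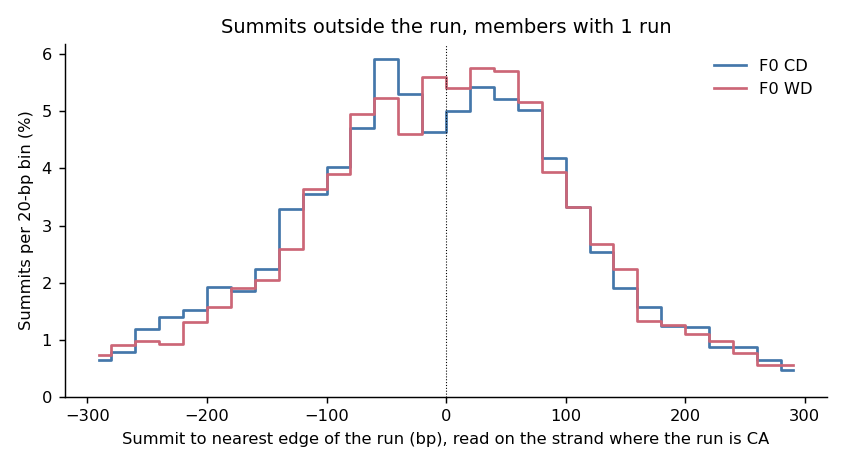
Percent of summits per 20-bp bin by distance in bp from the nearest edge of the run, negative 5′ of it on the strand where the run reads CA, for members with 1 run in F0 CD and F0 WD libraries. In both diets the bins within 80 bp of the run were the fullest, with the highest at -60 to -40 bp in F0 CD (5.91%) and at 20 to 40 bp in F0 WD (5.76%). A member holds its run by definition, which in part fills the near bins. The summits inside the run, 10.1% in F0 CD and 11.4% in F0 WD, are not drawn.

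Of the summits outside a single run, 51.5% ± 1.68 (SD, n = 10 libraries) lay 5′ of it when read on the CA strand, above 50% in 7 of 10 libraries (exact sign-flip permutation test, p = 0.0293, adjusted p = 0.0342). The excess of 1.48 percentage points was 0.389 (exact p = 0.449) with runs of at least 8 units, and it did not pass the test without F0 CD replicate 4 or F0 CD replicate 6 (p = 0.0547 and 0.109). As a comparison, GA/TC runs of at least 10 units were found alone in 78 distal regions without a CA/TG run. There 3.05% of 262 summits lay in the run (0 to 8.70% per library) and the median distance was 147 bp (95.5 to 202 bp per library). In members with 1 run the library values were 8.83 to 13.6% and 63 to 91 bp. This contrast was not tested, and the sets were not matched for recurrence or for the run's share of interval bases. Summits of different libraries at the same member were a median of 55.5 bp apart, against 65 bp at other distal regions.

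Among members with 1 run, those found in most libraries were those in which the summit lay furthest from the run. The median distance was 34.0 bp for the 1463 found in 2 libraries, 60.0 bp in 3 or 4 libraries, 107 bp in 5 to 7, 150 bp in 8 or 9, and 150 bp (149.5) for the 38 found in all 10. The share of summits in the run fell from 21.1 to 3.50% over the same order. The contrast was smaller with members of several runs included. All 99 members found in all 10 libraries had a median distance of 84 bp, with 11.3% of summits in a run. Over all members the values were 54.0 bp and 15%. In members with 1 run the median share of short CA/TG stretches at the summit rose over the same classes, from 14.3 through 29.7, 36.6 and 43.3 to 45%. Their median repeat-masked share rose from 61.0 to 89.5%. In other distal regions the stretch share was 0, 22.8, 29.7, 29.7 and 0% over these classes, so a rise up to 8 or 9 libraries was not particular to members. Over all members, summits of those found in 8 or more libraries held 48.6% ± 0.910 of bases in short stretches and those of members found in 2 libraries 16.6% ± 4.09 (SD, n = 10 libraries), a difference in the same direction in 10 of 10 libraries (exact sign-flip permutation test, p = 0.00195, adjusted p = 0.00456). Regions found in more libraries are also wider after merging, with a median of 288 bp for members in 2 libraries and 630 bp for those in all 10, which leaves more room for a distant run.

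**Figure D3:**
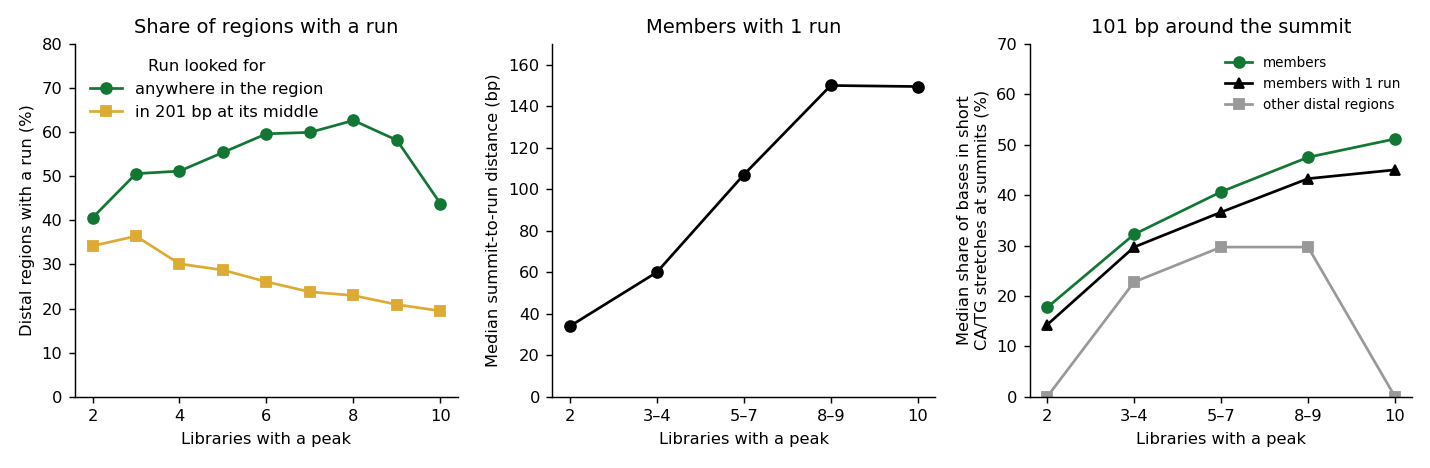
By the number of libraries with a peak (x axis), percent of distal regions with a run anywhere or in a 201-bp window at the middle (left), median distance from summit to run in bp for members with 1 run (centre), and median percent of the 101 bases around summits in short CA/TG stretches (right). The distance rose from 34.0 to 149.5 bp, and the members' stretch share rose at each step. That of other distal regions rose from 0 through 22.8% to 29.7% in 5 to 7 and in 8 or 9 libraries, and was 0 in all 10.

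Whether members recurred more often than other distal regions depended on where the run was looked for. A member with a peak in a library had a peak in 4.24 ± 0.245 of the other 9 libraries and another distal region in 3.74 ± 0.227 (SD, n = 10 libraries), higher for members in 10 of 10 libraries (exact sign-flip permutation test, p = 0.00195, adjusted p = 0.00456). When the run had to lie in a fixed window of 201 bp at the middle of the region, regions with a run had 3.52 ± 0.234 and the others 4.19 ± 0.231, lower in 10 of 10 libraries (exact p = 0.00195, adjusted p = 0.00456). For members as defined, the difference of 0.498 libraries was 0.0994 when a region had to be found in 3 libraries (exact p = 0.00586) and 0.240 with runs of at least 15 units (exact p = 0.00195). Merged width rose with recurrence as well, and its part in either difference was not tested. Members in all 10 libraries numbered 99, of the 226 distal and 561 consensus regions found in all 10, and in 56 of the 99 no summit of any library lay in a run.

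Members were slightly stronger than other distal regions of the same library. The median fold over local background was 4.20 ± 0.397 against 3.99 ± 0.315 (SD, n = 10 libraries), higher in 10 of 10 libraries (exact sign-flip permutation test, p = 0.00195, adjusted p = 0.00456). The median summit held 17.3 ± 1.70 reads against 16.5 ± 1.90, higher in 8 libraries and equal in 2 (exact p = 0.00781, adjusted p = 0.0137). The intervals were 4.45 bp ± 1.16 (SE) wider (exact p = 0.00977, adjusted p = 0.0152) and the summit lay 0.95 bp ± 0.217 nearer to the middle (p = 0.00781, adjusted p = 0.0137). Both differences are small beside the 200 bp to which reads were extended for peak calling. When 3 libraries were required, the fold difference of 0.216 was 0.116 (exact p = 0.00781), and the differences in reads, width and centring were each smaller and did not pass the test.

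Set against the 4516 intronic regions with a run, the members differed in distance and not detectably in the other 2 measures, with calls that depended on the run length required. The share of summits in a run was 14.9% ± 1.35 in members and 14.9% ± 1.56 in intronic regions (SD, n = 10 libraries), a difference of 0.007 percentage points ± 0.420 (SE, exact sign-flip permutation test, p = 0.986). Recurrence was 4.24 against 4.23 other libraries (difference 0.0147 ± 0.0154, exact p = 0.359). The median distance was 2.75 bp ± 0.834 longer in members (exact p = 0.0156, adjusted p = 0.0219), and did not pass the test without F0 WD replicate 2 (p = 0.0508) or with runs of at least 15 units (2.95 bp, exact p = 0.0508). The recurrence difference was 0.0426 with runs of at least 8 units (exact p = 0.00586) and 0.0737 with at least 15 units (exact p = 0.00195).

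Members lay a median of 23.2 kb from the nearest transcript start, against 22.2 kb for other distal regions, and the nearest start was that of a protein-coding gene in 31.2%. The 5060 members had 3953 different nearest genes, of which 3157 were nearest to 1 member and 21 to 5 or more, up to 9. Repeat-masked bases made up a median of 76.7% of a member and 62.8% of another distal region, which the run itself brings in part. Median GC content was 45.1% in members and 46.1% in other distal regions. A GA/TC run was present in 6.70% of members and 1.49% of other distal regions.

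The 5 strongest members found in all 10 libraries had median folds of 8.35 to 14.5, beside a mean library median of 4.20 over all members. The region 11.5 kb from the start of C330021F23Rik, a gene without an established role, at chr8:3556133-3556462 had folds of 12.5, 14.9 and 15.4 (lowest, median and highest of the 6 F0 CD libraries) and of 14.0, 19.1, 14.4 and 10.1 in F0 WD replicates 1 to 4. The diets overlapped there, and every summit lay within 6 bp of a run of 10 units or more. At Dcdc2a, which encodes a doublecortin-domain protein, the region chr13:25050210-25050733, 5.27 kb from the start, had 6 runs and folds of 6.92, 8.68 and 11.7 in F0 CD and of 13.4, 13.3, 9.62 and 5.69 in F0 WD. Again the diets overlapped, and 7 of 10 summits lay in a run.

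In the other 3 strong members the summits stood apart from the perfect run or moved along the tract. At chr1:35106638-35107054, 72.0 kb from the snoRNA gene Gm25096, the folds were 8.30, 8.68 and 12.6 in F0 CD and 8.82, 9.22, 8.87 and 7.14 in F0 WD, and the summits lay 50 to 102 bp from a run in all libraries. At chr12:55538332-55538952, 26.3 kb from Aldoart2, a testis-expressed retrogene of aldolase A, the folds were 6.58, 8.02 and 12.6 in F0 CD and 8.46, 10.6, 9.47 and 9.17 in F0 WD, with summits 19 to 108 bp from a run. At chr13:73520551-73521118, 7.15 kb from Lpcat1, which encodes a lysophospholipid acyltransferase, the folds were 3.47, 7.88 and 10.9 in F0 CD and 8.80, 13.7, 9.43 and 6.53 in F0 WD, and 4 of 10 summits lay in a run. The diets overlapped in all 3.

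Among the 5 members with the longest runs, the number of libraries with a peak ranged from 2 to 10. The run of 136 units nearest to Gm9661 (chr12:109857056-109857477) reached into its region only with its end, and the region had a peak in 4 libraries with 14 to 26 reads. The run of 91 units near Akap12, which encodes a scaffold of protein kinase A, began outside its region (chr10:4241785-4242070) and lay in it only in part. That region had a peak in 2 libraries, F0 CD replicate 2 with 27 reads and F0 WD replicate 2 with 25 reads. The run of 67 units near Gm21964 passed the end of its region (chr8:110136217-110136598), which had a peak in 5 libraries with 15 to 30 reads. The run of 64 units near Arhgap32 also passed the end of its region (chr9:32286722-32287179). This region had a peak in all 10 libraries with 13 to 30 reads, and its summits lay 37 to 241 bp from the run. In these 4 regions 0 summits lay in a run of 10 units or more. The Lpcat1 region, described above among the strongest members in all 10 libraries, has the next longest run, of 41 units.

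No diet difference in how many members were detected or where the summits lay passed the test. Members with a peak made up 30.6, 36.6 and 62.2% of all members in F0 CD (lowest, median and highest) and 43.2, 40.5, 40.4 and 24.7% in F0 WD replicates 1 to 4. The highest and the lowest value belonged to the longest and the shortest list. The means were 40.6% ± 12 (SD, n = 6) and 37.2% ± 8.43 (SD, n = 4; exact permutation test over 210 splits, p = 0.695, adjusted p = 0.834 over 6 diet comparisons). The member share of the distal regions detected in a library, which does not scale with list length, was 50.6% ± 2.54 in F0 CD and 52.4% ± 1.27 in F0 WD (exact p = 0.252, adjusted p = 0.705).

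The summit measures likewise overlapped between diets. The share of member summits in a run was 13.6, 14.4 and 16% in F0 CD and 14.6, 14.1, 18.1 and 15.2% in F0 WD (exact p = 0.352, adjusted p = 0.705). The median distance to the run was 57 bp ± 5.48 in F0 CD (SD, n = 6) and 51.3 bp ± 5.06 in F0 WD (SD, n = 4), a difference of -5.75 bp ± 3.38 (SE, exact p = 0.148, adjusted p = 0.705). The median run length was 17.8 and 18 units (exact p = 1), and the median share of short stretches at summits 36.6% ± 1.19 and 37.1% ± 1.97 (exact p = 0.624, adjusted p = 0.834). For none of the 14 differences measured within libraries did the diets differ at p under 0.05 by the same test, the smallest value being 0.100.

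**Figure D4:**
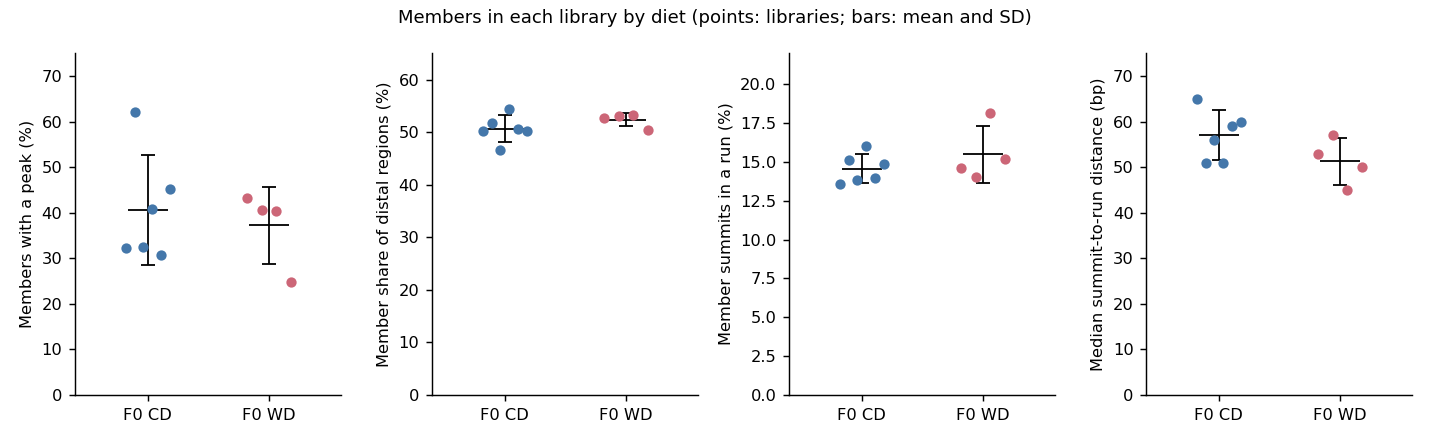
Points are libraries (6 F0 CD, 4 F0 WD) with the mean and SD, for members with a peak (%), the member share of distal regions (%), member summits in a run (%) and the median summit-to-run distance (bp). The diets overlapped in all 4 measures.

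Per member, detection was compared by Fisher's exact test on the number of libraries with a peak, over all 24763 consensus regions. At an unadjusted p under 0.05, 33 members (0.652%) were detected more often in F0 WD, against 0.553% of all consensus regions and 0.419% of other distal regions. In the F0 CD direction 39 members (0.771%) were called, against 0.468% and 0.510%. A call in the F0 CD direction takes a peak in 5 to 7 libraries. Of the 1136 members with that number 39 were called, and of the 828 such other distal regions 28. The part of recurrence in these shares was not tested. With every list cut to equal size, 33 members were called in the F0 WD direction and 19 in the F0 CD direction, so the larger direction turned. Leaving out 1 library gave 13 to 60 in the F0 WD direction, moving by over 1.5 times when F0 CD replicate 2 (60) or one of F0 WD replicates 1, 2 and 3 (17, 19 and 13) was dropped, and 39 to 75 in the F0 CD direction, with 60 or more when any F0 CD library other than replicate 2 was dropped. Dropping a library also changes which patterns of libraries can pass the test, and the part of that in these counts was not tested. No region passed Benjamini-Hochberg adjustment over all regions (0 of 24763, 0%). Of the 33, 27 were seen in 3 Western diet libraries with no control library, 3 in all 4 with none, and 3 in all 4 with 1. Of the 39, 23 were seen in 5 control libraries with no Western diet library, 4 in all 6 with none, and 12 in all 6 with 1. The test can give no p under 0.00476 with these group sizes. Peaks of both diets were present at 77.0% of members, of F0 CD alone at 18.2% and of F0 WD alone at 4.74%, values that depend on the unequal number of libraries.

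Summits of the members called held a median of 16 reads (9 to 24) in the F0 WD direction and 17 reads (10 to 33) in the F0 CD direction, beside a mean library median of 17.3 over all members. The longest runs had medians of 20 and 16 units. The summits lay in a run in 17.6% of cases and at a median distance of 49.0 bp in the F0 WD direction, and in 7.86% and at 94.0 bp in the F0 CD direction. The latter had a peak in 5 to 7 libraries and the former in 3 to 5, and the part of that number in the distances was not tested.

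Of the 3 members present in every F0 WD library but absent from F0 CD, the Gm26307 region (chr16:74653900-74654179, 46.1 kb from a snoRNA gene) had 19, 13, 18 and 22 reads at the summit in F0 WD replicates 1 to 4, each 31 to 91 bp from its single run of 18 units. The Gm22798 region (chr3:52690501-52690828, 31.9 kb from a snRNA gene) had 14, 19, 20 and 22 reads, and the region 38.1 kb from Cacnb2 (chr2:14564603-14564962), which encodes a beta subunit of voltage-gated calcium channels, had 13, 18, 19 and 19 reads and 7 runs, with 3 of its 4 summits in a run. All 3 had an unadjusted p of 0.00476 and an adjusted p of 1. Among members found in 3 F0 WD libraries, the Gm38373 region (chr5:132778889-132779371) had 18, 21 and 22 reads with the summits 92 to 227 bp from the run, and the region of the lincRNA gene Gm30498 (chr6:118356854-118357402) had 19, 18 and 15 reads (p = 0.0333 for both by Fisher's exact test, adjusted p = 1). These calls were lost without any 1 of the libraries with a peak (exact p = 0.0833), F0 WD replicates 1, 2 and 4 for Gm38373 and 1, 3 and 4 for Gm30498, and for Gm30498 also with q under 0.01 (exact p = 0.133).

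In the other direction 4 members were present in every F0 CD library but absent from F0 WD. The region of the lincRNA gene Gm43298 (chr5:150907683-150908220) had 15, 17 and 25 reads (lowest, median and highest), with summits 0 to 218 bp from its run of 17 units. The region 3.75 kb from Mrpl58, which encodes a protein of the mitochondrial ribosome (chr11:115399393-115400007), had 14, 18 and 21 reads and summits 90 to 413 bp from its run. The region of the snRNA gene Gm23056 (chr1:128880294-128880989) had 13, 16.5 and 25 reads, and that of the lincRNA gene Gm11515 (chr11:95207028-95207879) 15, 18 and 21 reads at the strongest summit of each library. Each had an unadjusted p of 0.00476 by Fisher's exact test and an adjusted p of 1. The region of the lincRNA gene 4930570E03Rik (chr16:78660445-78661042), masked as repeat over its whole length, had 12, 21 and 22 reads in F0 CD and 20 reads in F0 WD replicate 1 (Fisher's exact p = 0.0333, adjusted p = 1). That call was lost without F0 WD replicate 2, 3 or 4 (exact p = 0.0833), and with q under 0.01 or equal list size (exact p = 0.190). A library with fewer reads at a region than its weakest called summit lists no peak there.

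**Figure D5:**
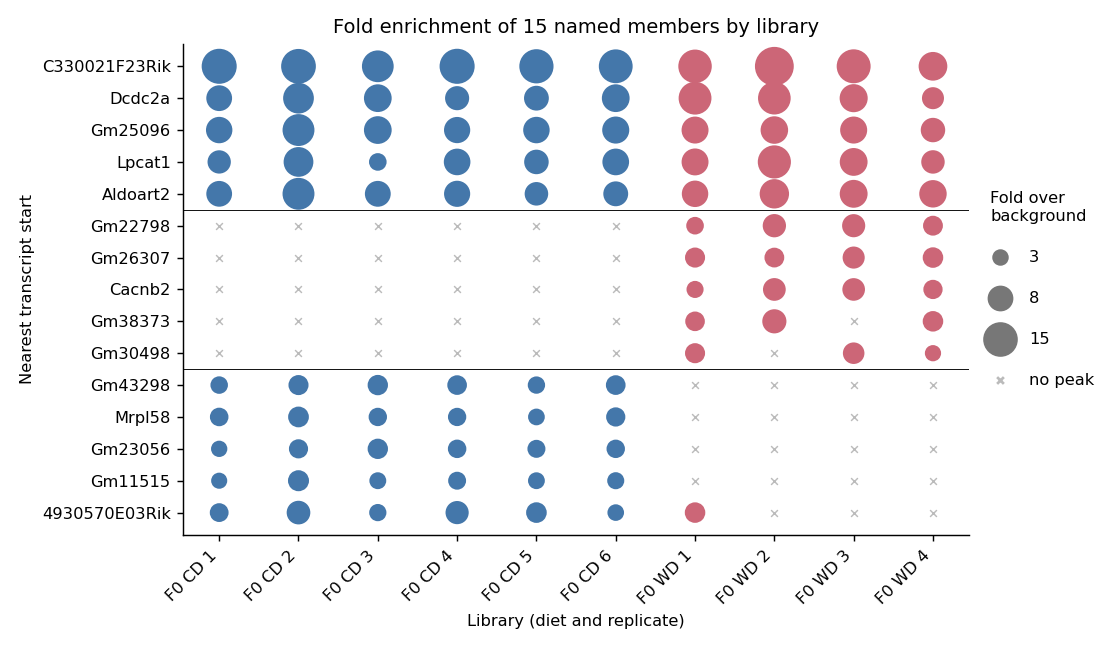
Fold enrichment over local background (circle area) of 15 named members in each of the 10 libraries, with a cross where the library had no peak. The upper 5 had a peak in all 10 libraries, the middle 5 were called more often in F0 WD and the lower 5 more often in F0 CD.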

How the data were processed

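Sperm ATAC-seq of 10 mice was analysed from 1 MACS2 peak list per library. Per the methods and the submitters' notes, reads were trimmed (Trim Galore 0.6.10), aligned to mm10 (Bowtie2 2.4.5), freed of duplicates (Picard 2.24.0) and filtered on an alignment quality of 5, and peaks were called per library (MACS2 2.2.7.1, q 0.05, shift -100, extension 200 bp) by the authors. The deposited score is an integer made from the q value. The deposited fold is a ratio of summit reads to local background with a pseudocount of 1, and p and q values were deposited as −log10. The lists hold no read counts. Summit reads were solved from fold and p for the 182970 of 183672 summits with a −log10 p under 60, within 0.001. The weakest called summits of 9 to 13 reads limit what a missing peak can show.

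Runs of CA or TG were searched on the + strand of GRCm38, which finds both strands, and transcripts were those of GENCODE M21. Members were compared with other regions within libraries by exact two-sided sign-flip permutation (1024 patterns), and diets by exact two-sided permutation over 210 splits and by Fisher's exact test per region, with Benjamini-Hochberg adjustment over each family and over all 24763 regions. The members, lists and tests were chosen with earlier results of these data known. Named regions were the 5 members of highest median fold among those in all 10 libraries, up to 5 per diet direction with an unadjusted p under 0.05 by p and then rank in their lists, and the 5 with the longest run. Alternatives were q under 0.01, 3 libraries, 8 or 15 units, a window of 1 kb, every summit listed, equal list size, mid-p, leaving out single libraries, and blocking on replicate number. Interval middles, interval bases, the fixed window and the short stretches came in as comparisons only once values had been seen. Summit sequences are printed for 8 of the named regions, and the others are not reported here. The scripts were tested on simulated data. Python 3.11.15, numpy 2.4.6, pandas 2.3.3, scipy 1.17.1 and matplotlib 3.10.9 were used.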

Additional observations from a re-analysis of the deposited data

Results flagged for a closer look

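A library far from the others of its diet was seen in 6 of 44 groups of values examined, where chance gives about 1 in 20. F0 WD replicate 4, the shortest list, detected 24.7% of members, against 40.4 to 43.2% in the other F0 WD libraries, and had a member share of distal regions of 50.5%, against 52.8 to 53.2%. In the same library the share of short CA/TG stretches at summits was 28.8 percentage points higher in members than in other distal regions, against 18.8 to 19.2 in the other 3. F0 CD replicate 5 had a median run length of 17 units where the others had 18. In F0 CD replicate 6 the share of summits in the run exceeded the run's share of the interval bases by 3.42 percentage points, against 1.19 to 2.03. F0 CD replicate 2, the longest list, held 1450 distal regions with a run that were found in no other library, against 383 to 721.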

How the results depend on the processing

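Peaks with q under 0.01 gave a difference in summit reads between members and other distal regions of 0.50 (exact p = 0.0625) and in centring of -0.475 bp (p = 0.109). Requiring 3 libraries gave 0.10 reads (exact p = 1), 0.35 bp of width (p = 0.805), -0.525 bp of centring (not past the test) and 0.193 percentage points between summits in the run and its share of interval bases (p = 0.611), and 0.317% of runs without flanking stretches in a region. Runs of at least 8 units gave -0.475 bp of centring (exact p = 0.148) and 0.389 percentage points for the 5′ side (p = 0.449), and runs of at least 15 units 0.50 reads (p = 0.0625), 0.35 bp of width (p = 0.816) and 25 members called more often in F0 CD. All p-values are from exact sign-flip permutation tests. The difference from intronic regions in summits in a run was negative with q under 0.01 (-0.0461), 3 libraries (-0.0351), 8 units (-0.183) and 15 units (-0.0322), and none of these passed the test. The difference from them in distance was 2.95 bp with 15 units (exact p = 0.0508), and in recurrence -0.00165 with q under 0.01, 0.0426 with 8 units (exact p = 0.00586) and 0.0737 with 15 units (exact p = 0.00195). With the run in a fixed window the recurrence difference from other distal regions was -0.670. Members called were 53 in the F0 WD direction and 88 in the F0 CD direction by mid-p, and 19 in the latter at equal list size. The cause of these changes was not tested. The other 121 values of comparisons kept their direction and their side of the test under these alternatives, some at a smaller size. Of the 70 values for single named regions 3 lost their call, Gm30498 with q under 0.01 and 4930570E03Rik with q under 0.01 and at equal list size.

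Leaving out each library in turn gave 13 to 60 members called more often in F0 WD, with 60 without F0 CD replicate 2, 17 without F0 WD replicate 1, 19 without F0 WD replicate 2 and 13 without F0 WD replicate 3. It gave 39 to 75 called more often in F0 CD, with 60 to 75 without F0 CD replicate 1, 3, 4, 5 or 6. Which patterns of libraries can pass Fisher's exact test also changes when a library is left out. The diet difference in members detected ranged from -5.58 to 1.01 percentage points and was positive in 2 of 10 cases, at 1.01 when F0 CD replicate 2 was left out and at 0.864 for F0 WD replicate 4. The difference from intronic regions ranged from -0.165 to 0.473 in summits in a run, from 1.94 to 3.11 bp in distance and from -0.0251 to 0.0355 in recurrence. The 5′ excess ranged from 1.10 to 1.92, and the excess over interval middles from 0.587 to 1.16. The other 216 values of comparisons did not change their direction or side, and of the 100 for named regions 9 lost their call, 3 each for Gm38373, Gm30498 and 4930570E03Rik (exact p = 0.0833).

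Libraries share replicate numbers 1 to 4, but nothing in the labels says that a number marks a shared batch. The deviations of same-numbered libraries from their group means correlated at -0.0109 to 0.0356 over consensus regions, so the numbers were not taken as pairs. With the replicate block, which cannot pass 0.05 with 4 pairs, the difference in members detected was -4.69 percentage points (exact p = 0.625) and in distance -4.50 bp (exact p = 0.375), and 6 and 20 members had a peak in all 4 F0 WD or all 4 F0 CD libraries of the pairs and none of the other. The weakest summits of 9 to 13 reads and the lack of read counts limit all comparisons of detection.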

Other observations

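Distal autosomal regions found in a single library were not members. Of these 35596 regions, 7055 (19.8%) held a CA/TG run of at least 10 units, 13.7 to 23.0% per F0 CD library and 17.3 to 24.9% per F0 WD library, against 40.6% of the distal regions found in 2 libraries and 3.45% of the tiles of distal sequence. On chromosome X, outside the members by their definition, 4 of 31 distal consensus regions (12.9%) held a run. Among distal regions without a run, those found in all 10 libraries numbered 127 and had a median of 0% of summit bases in short CA/TG stretches, with 61.6% of their summits holding none, whereas the 99 members found in all 10 had a median of 51.2%. For distal regions without a run found in 8 or 9 libraries the median was 29.7%.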
